A study of Mus musculus with 14 samples.

Results

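The RNA of 9 histone variant genes was followed in c-KIT-positive differentiating spermatogonia of the mouse: H2afx, H2afz, H2afv and H2afy of the H2A family, H3f3a, H3f3b and Cenpa of the H3 family, and the linker histone genes H1fx and H1f0. They were chosen by name, with earlier results of these data known, and all 9 were found among the 24984 gene symbols of both count tables. Bulk RNA sequencing had been done on cells sorted from testes of C57BL/6J mice in 2 experiments, with 14 libraries in 4 groups; both concern Cbx2, which encodes a subunit of the Polycomb complex PRC1. In the deletion experiment, 3 intraperitoneal injections of 200 µL were given, of tamoxifen at 20 mg/mL to 2 Rosa26-CreERT2; Cbx2 Flox/Δ animals and of corn oil alone to 2 Rosa26-CreERT2; Cbx2 Flox/+ animals. All 4 animals therefore carried the recombinase, and genotype and tamoxifen differed together. Rosa26 drives expression broadly and is not a germ-cell promoter. The 23KRA experiment set 5 Cbx2 23KRA/23KRA animals, whose allele has alanine for lysines and arginines of the CaPS domain, against 5 Cbx2 +/+ animals, all untreated. Ages are not given in the labels.

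Replication-dependent histone genes lie in clusters, lack introns, and give messages that end in a stem-loop instead of a poly(A) tail and are made in S phase. Variant genes mostly lie apart from the clusters, are usually polyadenylated and are transcribed through the cell cycle, so their products can replace the canonical histones outside replication. In the male germ line H2AX, phosphorylated at DNA breaks and on the sex chromosomes, and H3.3 are needed for normal meiosis and sperm formation. PRC1 itself acts on histones, since it ubiquitinates H2A and its canonical form compacts nucleosomes.

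The deletion libraries held 28169990 to 31166500 counts and the 23KRA libraries 14562564 to 19814511. The deletion libraries were made with an mRNA kit and the 23KRA libraries with a total RNA kit depleted of ribosomal cDNA, while the labels give polyA RNA for both, so levels are compared within an experiment unless stated. Levels are given as CPM, in which counts are divided by library sizes adjusted by TMM within each experiment. Kit, which defines the sort, was at 203 to 271 CPM in the deletion and 232 to 303 CPM in the 23KRA libraries, and the 6 markers of differentiating spermatogonia were detected in every library. These 6 markers summed to 1305 to 1344 CPM in the deletion and 1173 to 1487 CPM in the 23KRA libraries. The sum of 6 spermatid markers was higher than this in the deletion libraries, at 2279 to 2954 CPM. It was lower in the 23KRA libraries, at 216 to 986 CPM. Cbx2 had 93.9 and 97.7 CPM in oil controls and 78.5 and 86.5 CPM in deleted animals, and 53.2 to 83.6 CPM in wild type against 48.8 to 89.7 CPM in 23KRA homozygotes, so its transcript was still present in every mutant library. Counts cover the whole gene and which exons were deleted is not stated in the labels, so these levels do not check the deletion, and "deleted" below is the group as labelled. Each library was taken as 1 animal, because the labels name equal numbers of animals and libraries. In bulk samples such as these, fewer cells that express a gene and less of its RNA per cell cannot be told apart.

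H2afx, the gene of the variant phosphorylated beside DNA breaks, carries the sequence mark of a replication-dependent histone message. The gene (ENSMUSG00000049932.3) is on chromosome 9 at 44334694 to 44336077 (GRCm38, plus strand) and is a single exon of 1384 bases. Its GENCODE transcript was the only one among the 9 genes to hold the histone stem-loop motif, spelled as GG, any 2 bases, CTT, any base, T, any base, AG, any 2 bases and CC, searched on the sense strand of protein-coding transcripts. The motif was found in 46 of 67 histone cluster genes (68.7%) and in 136 of all 21877 protein-coding genes (0.622%). On the other strand the same search gave 83 of 21877 genes (0.379%) and no member or cluster gene. The sites below are shown because they are what sets H2afx apart from the other 8 genes in sequence. They are printed 5′ to 3′ with the 16 bases of the motif in capitals, first for H2afx and then for the 2 cluster genes with the motif and the highest mean CPM in the 23KRA libraries.
H2afx: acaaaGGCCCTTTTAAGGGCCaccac
Hist1h1c: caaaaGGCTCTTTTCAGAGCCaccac
Hist3h2a: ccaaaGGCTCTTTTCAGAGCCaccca
The H2afx site lies in the 3′ UTR on chromosome 9 at 44335235 to 44335260 (plus strand, GRCm38), and the motif starts at base 47 after the stop codon. A further 822 bases of annotated transcript follow it, beside 840 after the Hist1h1c motif and 1643 after the Hist3h2a motif. The Hist1h1c site is on chromosome 13 at 23739507 to 23739532 and the Hist3h2a site on chromosome 11 at 58955167 to 58955192, both on the plus strand. H2AX messages are known in both a short form that ends after the stem-loop and a longer polyadenylated form, and counts per gene do not separate them.

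Of the 9 genes, H2afx stood apart between the libraries of the 2 kits. It had 53.4 and 64.5 CPM in oil controls 1 and 2, against 716, 1154, 1031, 1145 and 1007 CPM in wild-type replicates 1 to 5. No library of one set came near the other, and the mean was 17.1-fold higher in the wild-type libraries (1010 ± 177 CPM, SD, n = 5) than in oil controls (58.9 ± 7.91 CPM, SD, n = 2). Among 13979 genes tested in both experiments, 43 had a higher ratio of wild type to oil control, and 30 of these 43 were histone cluster genes. Of the 69 cluster genes, 36 passed the filter on low counts in both experiments. All 36 were higher in wild type, with a median log2 ratio of 6.13 on log2(CPM + 1). The ratio was lower than that of H2afx for 6 of the 36. The stem-loop motif was in 26 of the 36, and 21 of these 26 were above H2afx, beside 30 of all 36. A part of the motif in the ratios was not tested. The other 8 variant genes had log2 ratios between -1.80 and 0.12, with a median of -1.02 beside -0.37 over all genes. Cenpa was 3.54-fold, H2afv 2.99-fold, H3f3b 2.83-fold and H2afz 2.09-fold higher in oil controls, while H3f3a (195 against 213 CPM) and H1fx (190.4 against 204 CPM) overlapped. These ratios are a description with no test, because kit, genotype and injection differed between the 2 sets and cannot be told apart. Markers of later germ cells differed between the 2 sets as well. Summed spermatid markers were at 2627 to 2954 CPM in oil controls and 259 to 972 CPM in wild type. Summed pachytene markers were at 734 to 735 CPM and 150 to 301 CPM. Their part in the ratios was not tested. Near-identical sequence could move some H2afx reads: 82 of its 1335 words of 50 bases (6.14%) also occur in transcripts of 21 other genes, 18 of them in the tables.

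**Figure D1:**
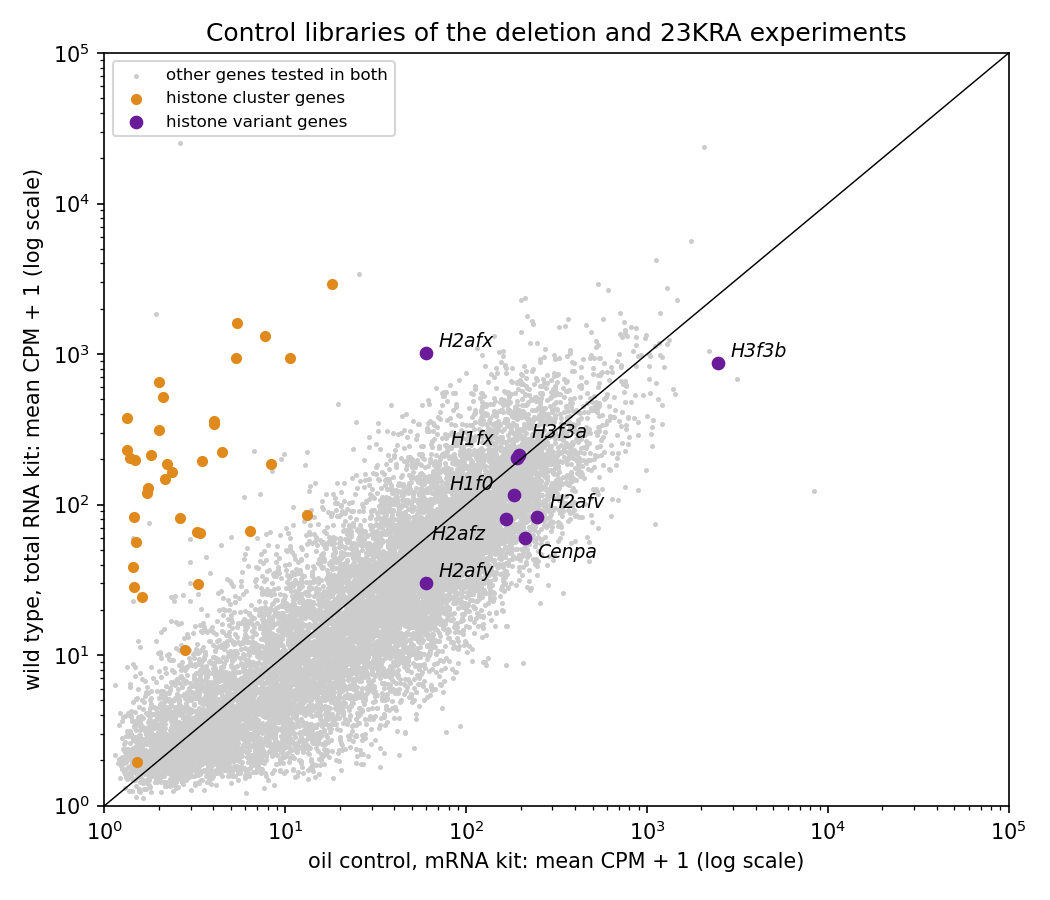
Mean CPM + 1 of each gene tested in both experiments, in the 2 oil control libraries (x axis, log scale) and the 5 wild-type libraries (y axis, log scale), with a line of equality. Purple points are the 9 histone variant genes and orange points the 36 histone cluster genes; H2afx lies far above the line, on the side of the cluster genes, at 58.9 and 1010 CPM before the 1 is added, and the other 8 lie below it or within 0.12 log2 units above it.

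The other histone variant genes share less with the clusters and differ among themselves in copies elsewhere in the genome. A search for the poly(A) signal AATAAA in the last 40 bases of protein-coding transcripts found it in 6 of the 9 genes, all but H2afx, H2afy and H3f3b, beside 64.1% of all protein-coding genes. No match says only that these letters are not in that window. H2afz and H2afv encode H2A.Z proteins, and H3f3a and H3f3b encode the same protein, H3.3. The members of each pair are nevertheless distinct genes at the level of reads, as the first 60 bases of their coding sequences show, with bases that differ within a pair in capitals.
H2afz: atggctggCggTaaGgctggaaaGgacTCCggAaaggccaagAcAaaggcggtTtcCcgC
H2afv: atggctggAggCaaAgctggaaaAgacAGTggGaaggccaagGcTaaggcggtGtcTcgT
H3f3a: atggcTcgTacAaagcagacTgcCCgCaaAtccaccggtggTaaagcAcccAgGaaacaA
H3f3b: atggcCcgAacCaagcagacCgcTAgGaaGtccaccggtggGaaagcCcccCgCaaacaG
Over 387 coding bases H2afz and H2afv differed at 81, an identity of 79.1%, and the longest identical run was 14 bases. Over 411 coding bases H3f3a and H3f3b differed at 95, an identity of 76.9%, and the longest identical run was 23 bases. Copies elsewhere matter more: 30.5% of the 50-base words of H2afz occur in 4 other genes, 12.7% of those of H3f3a in 38 and 8.40% of those of H3f3b in 3, and of these genes only 1, for H3f3a, is in the tables. How reads with several matches were counted is not given in the sources used here, so these 3 levels are less certain. No word of H2afv, H2afy, H1fx, H1f0 or Cenpa was shared.

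Per kilobase of exon, H3f3b led in the mRNA libraries and H2afx in the total RNA libraries. H3f3b (chromosome 11, 116021912 to 116027962, minus strand) had 976 ± 50.6 CPM per kb in oil controls (SD, n = 2), above every other member in both libraries. H1fx, H2afz and H2afv followed at 156 ± 34.1, 155 ± 4.34 and 151 ± 6.72 CPM per kb, levels whose ranges overlapped between neighbours. Cenpa at 128 ± 5.63, H1f0 at 88.8 ± 1.75, H3f3a at 62.4 ± 4.68, H2afx at 42.6 ± 5.72 and H2afy at 27.6 ± 3.24 CPM per kb each ranked in that order in both oil controls without overlap. In wild type (n = 5) the order was H2afx at 730 ± 128, H3f3b at 345 ± 30.2, H1fx at 168 ± 21.1, H2afz at 74.3 ± 9.06, H3f3a at 68.0 ± 8.92, H1f0 at 56.2 ± 7.43, H2afv at 50.4 ± 5.43, Cenpa at 36.2 ± 5.69 and H2afy at 13.6 ± 2.75 CPM per kb. Here neighbours from H2afz down to H2afv overlapped, and the first 3 and the last 2 did not overlap their neighbours. H2afy was lowest in both kits. Lengths are the joined exons of protein-coding GENCODE transcripts, and the length used for H2afx includes the 822 bases after its motif.

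**Figure D2:**
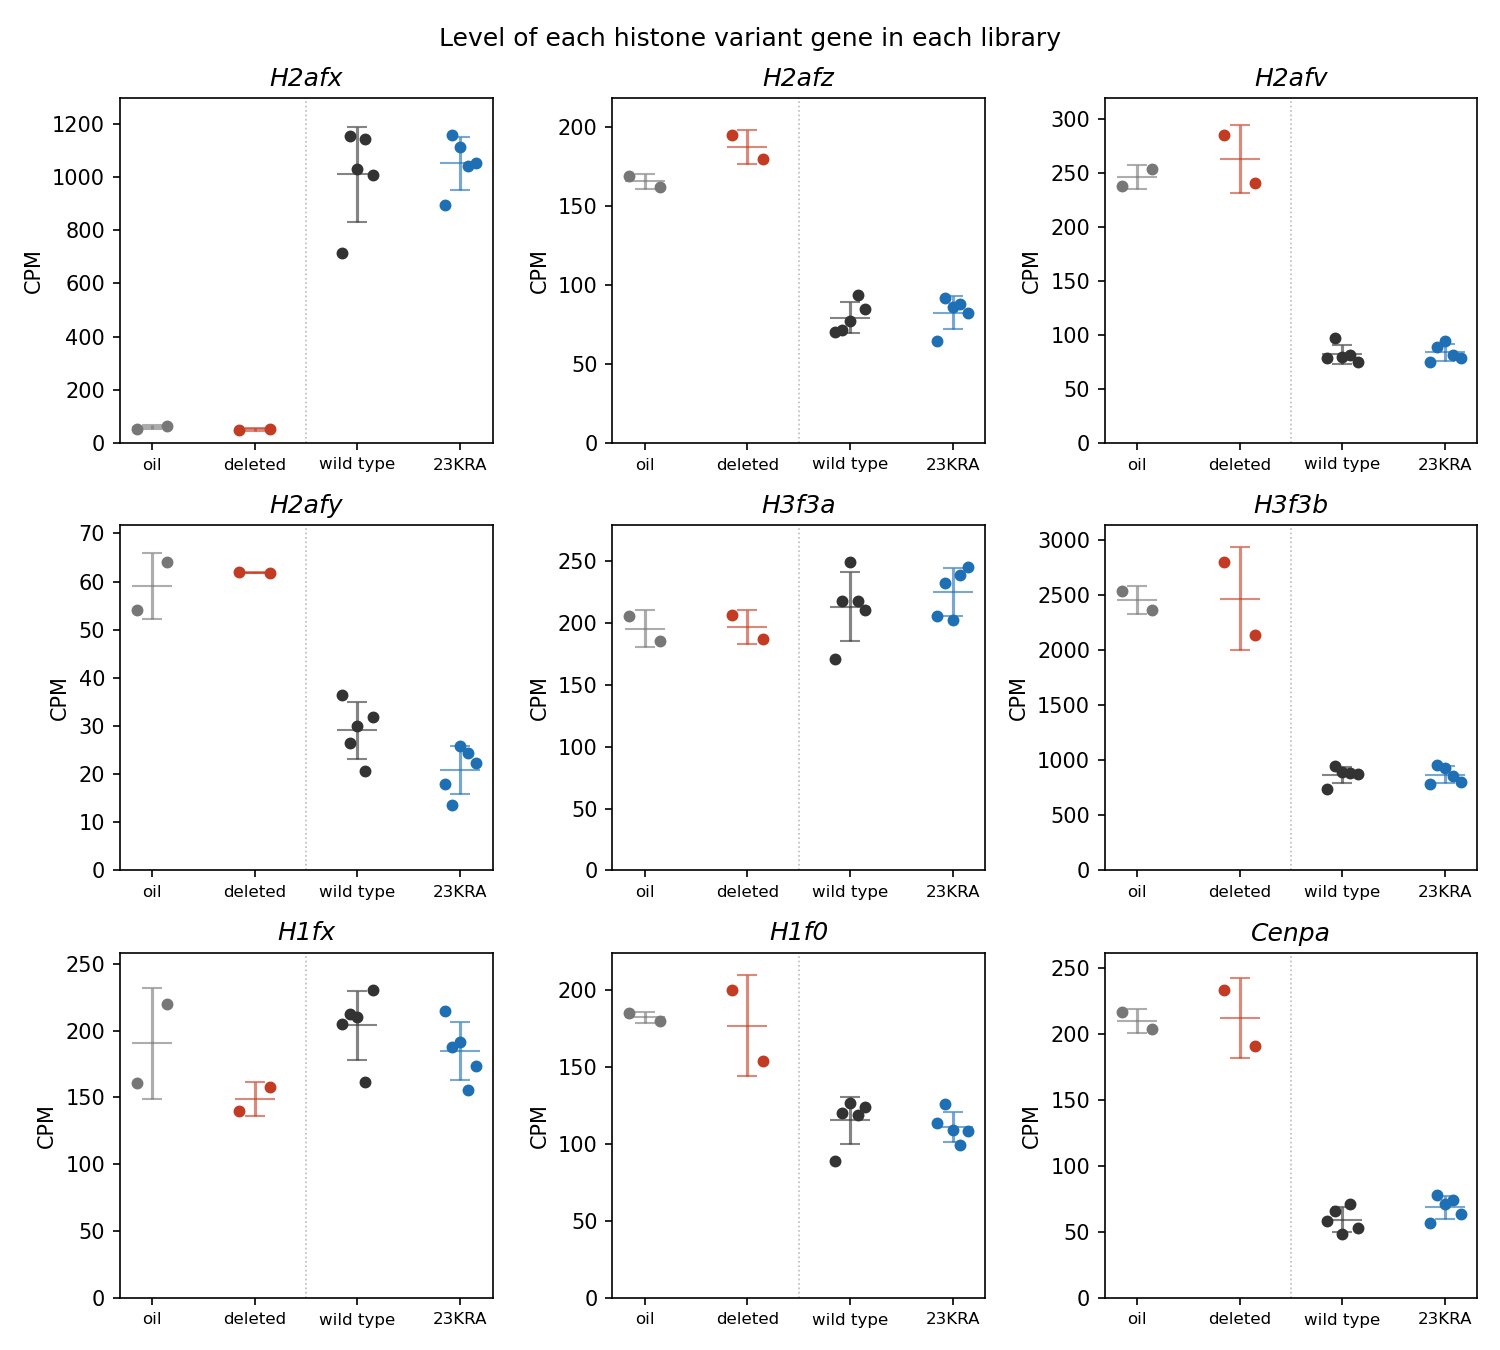
CPM of each of the 9 genes (y axes from 0, each panel with its own scale) in every library of the 4 groups; points are libraries, and the crossbar and whiskers are the mean and SD. A dotted line separates the mRNA kit from the total RNA kit: H2afx is at 47.0 to 64.5 CPM on the left and 716 to 1159 CPM on the right. The points of mutant and control overlap except for H2afz and H1fx in the deletion.

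The first comparison asked whether histone variant genes differed after induced deletion of Cbx2. No member passed in the main fit. The edgeR test called 0 of 9, beside 0.012% of all genes (2 of 16725), and DESeq2 and limma-voom also called 0 of 9. An edgeR fit with the replicate number as a block called 1 of 9, H1fx, beside 62 of 16725 genes over all. At an unadjusted p under 0.05 edgeR counted 1 of 9, H1fx, beside 4.74% of all genes. The groups did not overlap for 2 of 9, H1fx and H2afz, beside 33.1% of all genes. Their log2 fold changes had a median of 0.010, with 6 above 0 and 3 below, beside -0.0044 over all genes. Only H2afx, H2afz and H1fx kept the sign of their difference when each of the 4 libraries was left out in turn.

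Among the linker histones, H1fx encodes a replication-independent H1 and lies on chromosome 6 at 87980421 to 87981637 (minus strand). It had 161 and 219.7 CPM in oil controls and 140.1 and 158 CPM in deleted animals. Both deleted libraries were below both controls, but control replicate 2 alone was far above the other 3. The log2 fold change was -0.35 (SE 0.13, 95% interval -0.61 to -0.094; edgeR adjusted p = 0.971). It was -0.55 without oil control replicate 1 and -0.11 without oil control replicate 2. With all libraries and the replicate number as a block, the log2 fold change was -0.34 and H1fx passed (edgeR adjusted p = 0.0252). An antisense gene, Gm5577, overlaps 213 exonic bases of H1fx and had 5.06 to 6.75 CPM in these libraries. H1f0, the linker histone typical of cells leaving the cycle (chromosome 15, 79028450 to 79030504, plus strand), had 185 and 179.9 CPM with oil and 200.2 and 154 CPM after deletion. The deleted animals lay on either side of the controls (log2 fold change -0.044, interval -0.29 to 0.20).

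In the H2A family, H2afz (chromosome 3, 137864487 to 137866922, plus strand), which encodes the H2A.Z found at promoters and enhancers, had 169 and 162 CPM with oil and 195 and 180.2 CPM after deletion. Both deleted libraries were above both controls. Its log2 fold change was 0.18 (SE 0.11, interval -0.042 to 0.40; edgeR adjusted p = 0.971). H2afv (chromosome 11, 6427229 to 6444443, minus strand), the second H2A.Z gene, had 239 and 254 against 285 and 241 CPM, which overlap (log2 fold change 0.095, interval -0.13 to 0.32). H2afx, at 53.4 and 64.5 CPM with oil, had 47.0 and 54.1 CPM after deletion, which overlap (-0.22, interval -0.49 to 0.046). Its log2 fold change was -0.34 without oil control replicate 1 and -0.078 without oil control replicate 2. H2afy (chromosome 13, 56073619 to 56136361, minus strand) encodes macroH2A1, a large H2A linked to silent chromatin. It had 54.2 and 64.0 against 62.0 and 61.8 CPM (0.066, interval -0.19 to 0.32).

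In the H3 family the groups overlapped for all 3 genes. H3f3b had 2543 and 2364 CPM with oil and 2799 and 2142 CPM after deletion, so that the deleted libraries held both the highest and the lowest value (log2 fold change 0.010, SE 0.12, interval -0.23 to 0.25). It was 0.19 without deleted replicate 2 and -0.19 without deleted replicate 1. Cenpa (chromosome 5, 30666777 to 30674830, plus strand), whose product marks the centromere, showed the same split, with 217 and 204 CPM with oil and 234 and 191 CPM after deletion (0.014, interval -0.22 to 0.25). H3f3a (chromosome 1, 180800832 to 180813943, minus strand) had 206 and 185 against 207 and 187 CPM (0.010, interval -0.22 to 0.24). Each deleted library lay within 2 CPM of the control with the same replicate number. Summed markers of later germ cells were lower in both deleted libraries than in both controls, without a test. The summed CPM of 6 spermatid markers was 2627 and 2954 in controls and 2279 and 2613 in deleted animals. That of 5 pachytene markers was 735 and 734 against 605 and 680. Among the single markers the groups overlapped for Prm1, Tnp1, Tnp2, Piwil1 and Pou5f2, and they did not overlap for 33.1% of all genes. A part of later germ cells in the values of H1fx and H2afz was not tested.

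The second comparison asked the same of the 23KRA allele. No member passed here either. The edgeR test called 0 of 9, as did DESeq2 and limma-voom, beside 0% of all genes (0 of 14208). At an unadjusted p under 0.05 edgeR counted 1 of 9, H2afy, beside 3.04% of all genes. The groups overlapped for all 9 genes, beside 0.711% of all genes without overlap. The median log2 fold change was 0.026 with 6 above 0 and 3 below, beside 0.0034 over all genes. The sign held for 6 of the 9 when each of the 10 libraries was left out, and changed for H2afx, H2afv and H3f3b. Without wild-type replicate 1 that of H2afx was -0.042.

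H2afy had the largest difference of the 9 genes. It was at 36.4, 26.5, 30.0, 20.7 and 31.9 CPM in wild-type replicates 1 to 5. In homozygous replicates 1 to 5 it was at 18.0, 13.6, 25.8, 24.3 and 22.4 CPM. Of the 5 wild-type libraries 4 were above every homozygous library, and the other, replicate 4, was below 3 of them. Wild type averaged 29.1 ± 5.87 CPM and homozygotes 20.8 ± 4.99 CPM (SD, n = 5), and the log2 fold change was -0.48 (SE 0.20, interval -0.91 to -0.059; edgeR adjusted p = 1.00). It was -0.36 without homozygous replicate 2 and -0.58 without wild-type replicate 4. With 206 to 722 counts per library H2afy was also the least sampled of the 9 genes. Summed macrophage markers were at 8.26, 7.76, 84.2, 17.7 and 2.55 CPM in wild-type replicates 1 to 5 and at 6.05 to 19.5 CPM in homozygotes. Wild-type replicate 3 stood apart, and a part of macrophages in the H2afy values was not tested.

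Cenpa had 58.6, 65.6, 48.2, 71.5 and 53.3 CPM in wild-type replicates 1 to 5 and 56.5, 78.3, 71.6, 74.4 and 63.7 CPM in homozygous replicates 1 to 5. Most homozygous libraries were in the upper part of the wild-type range or above it, and the groups overlapped. The means were 59.4 ± 9.33 and 68.9 ± 8.77 CPM (SD, n = 5 each; log2 fold change 0.21, SE 0.13, interval -0.056 to 0.48; edgeR adjusted p = 1.00). H1fx was at 205, 212, 210.2, 161 and 230.4 CPM in wild-type replicates 1 to 5, with 214, 188, 191, 156 and 174 CPM in those of homozygotes (-0.14, SE 0.10, interval -0.35 to 0.066). Replicate 4 was lowest in both groups.

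The most abundant members differed little. H2afx had 896, 1159, 1115, 1040.2 and 1054 CPM in homozygous replicates 1 to 5, within or just above the wild-type range, and replicate 1 was lowest in both groups. Its mean was 1053 ± 99.9 CPM against 1010 ± 177 CPM in wild type (SD, n = 5 each; log2 fold change 0.059, interval -0.15 to 0.27). H3f3b was at 866 ± 75.9 and 869 ± 75.9 CPM in wild type and homozygotes (SD, n = 5 each; 0.0037, SE 0.075). Its interval, -0.15 to 0.16, was the narrowest of the 9 genes. Its libraries ran from 740.2 to 945 CPM in wild type (740.2, 945, 891, 883 and 873 CPM in replicates 1 to 5) and from 788 to 957 CPM in homozygotes (788, 957, 934, 860.4 and 803 CPM). Replicate 1 was lowest and replicate 2 highest in both groups.

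The other H3.3 gene, H3f3a, had 171, 217, 249, 218 and 210.3 CPM in wild type and 205, 232, 203, 238 and 245 CPM in homozygotes, by replicate, with all homozygous libraries inside the wild-type range (log2 fold change 0.078, interval -0.12 to 0.27). H2afz had 70.1, 71.9, 77.1, 93.5 and 84.7 CPM in wild type and 64.8, 91.8, 86.1, 88.0 and 82.5 CPM in homozygotes, where replicate 1 was again lowest in both groups (0.056, interval -0.19 to 0.30). H2afv, its partner, had 79.0, 97.6, 79.2, 81.1 and 74.7 CPM against 74.9, 89.1, 94.9, 81.8 and 78.5 CPM, and all homozygous libraries lay inside the wild-type range (0.026, interval -0.19 to 0.25). H1f0 had 88.9, 120.0, 127, 119 and 124 CPM in wild type, where replicate 1 stood below the rest, and 114, 126, 109, 99.3 and 108 CPM in homozygotes (-0.055, interval -0.27 to 0.16). For these 4 genes log2 changes beyond the intervals were outside the 95% bounds, and smaller ones were not resolved.

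**Figure D3:**
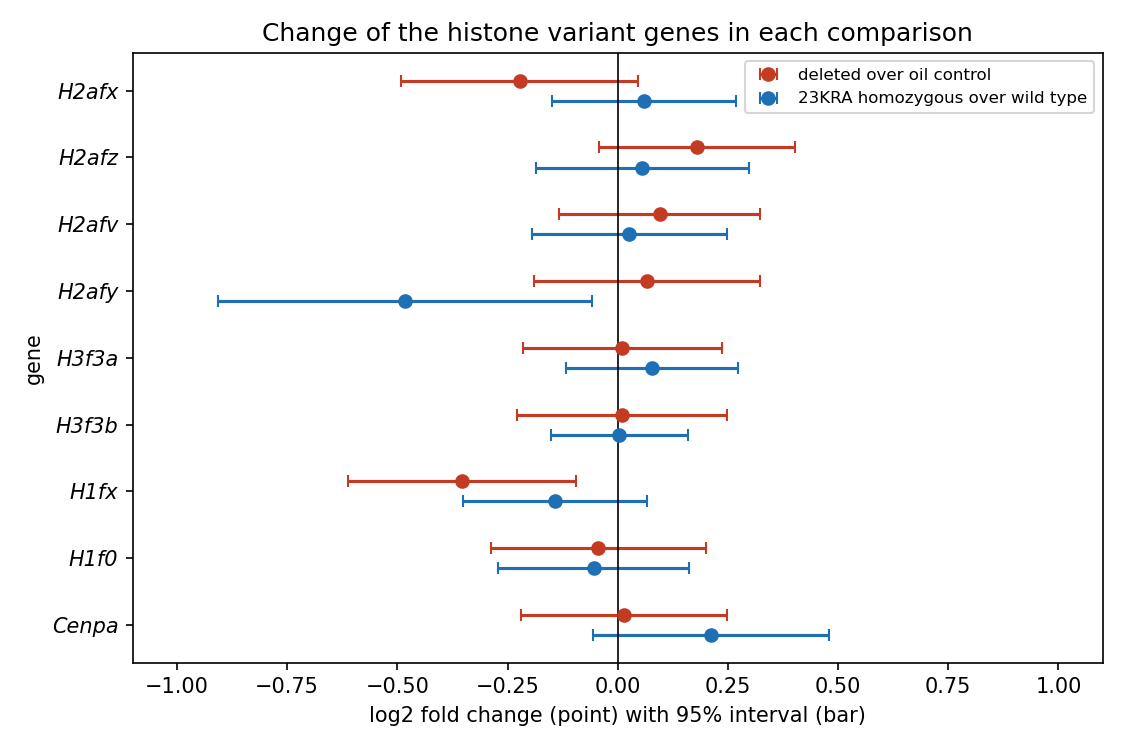
Log2 fold change of each of the 9 genes (points, x axis) with its 95% interval from the edgeR fit (bars), for deleted over oil control (red) and 23KRA homozygous over wild type (blue). The bars cross 0 except for H1fx in the deletion (-0.61 to -0.094) and H2afy in 23KRA (-0.91 to -0.059). Neither passed in this fit, which has no replicate block, after adjustment over all genes.

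Shares within a library do not depend on scaling between libraries and were compared for 3 quantities per experiment. H2afv made up 59.8% ± 1.74 of the counts of the H2A.Z genes in oil controls and 58.3% ± 1.56 in deleted animals (SD, n = 2; exact permutation p = 0.667), and 50.9% ± 4.62 in wild type and 50.4% ± 2.41 in 23KRA homozygotes (SD, n = 5; exact permutation p = 0.849, adjusted p = 0.849). H3f3b made up 92.6% ± 0.159 of the counts of the H3.3 genes in oil controls and 92.5% ± 0.817 in deleted animals (SD, n = 2; exact permutation p = 1.0), and 80.3% ± 1.28 in wild type against 79.4% ± 2.12 in homozygotes (SD, n = 5; exact permutation p = 0.452, adjusted p = 0.679). The 69 histone cluster genes are all symbols that start with Hist1h, Hist2h, Hist3h or Hist4h. They include Hist1h1t, Hist1h2aa and Hist1h2ba, which are also on the list of other histone variant genes below. These averaged 212, 945 and 942 CPM in wild type, beside 13930 CPM for all 69 genes summed. Against these 69 genes, the 9 variant genes made up 97.3% ± 0.111 of the summed counts of both sets in oil controls. In deleted animals they made up 97.6% ± 0.411 (SD, n = 2 each, exact permutation p = 0.667). In the total RNA libraries the same share was 16.2% ± 1.14 in wild type and 15.1% ± 1.34 in homozygotes (SD, n = 5; exact permutation p = 0.183, adjusted p = 0.548). With 9 further histone variant genes in the denominator, among them H1fnt and Hils1, the share was 89.1% ± 0.405 in oil controls and 90.1% ± 1.63 in deleted animals (SD, n = 2), and it ran from 14.4% to 16.9% in wild type and from 13.5% to 16.7% in homozygotes. None of the 6 differences passed; in the deletion all adjusted p were 1.0. The tests were two-sided, and the smallest p possible was 0.333 with 2 libraries a group and 0.00794 with 5.

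**Figure D4:**
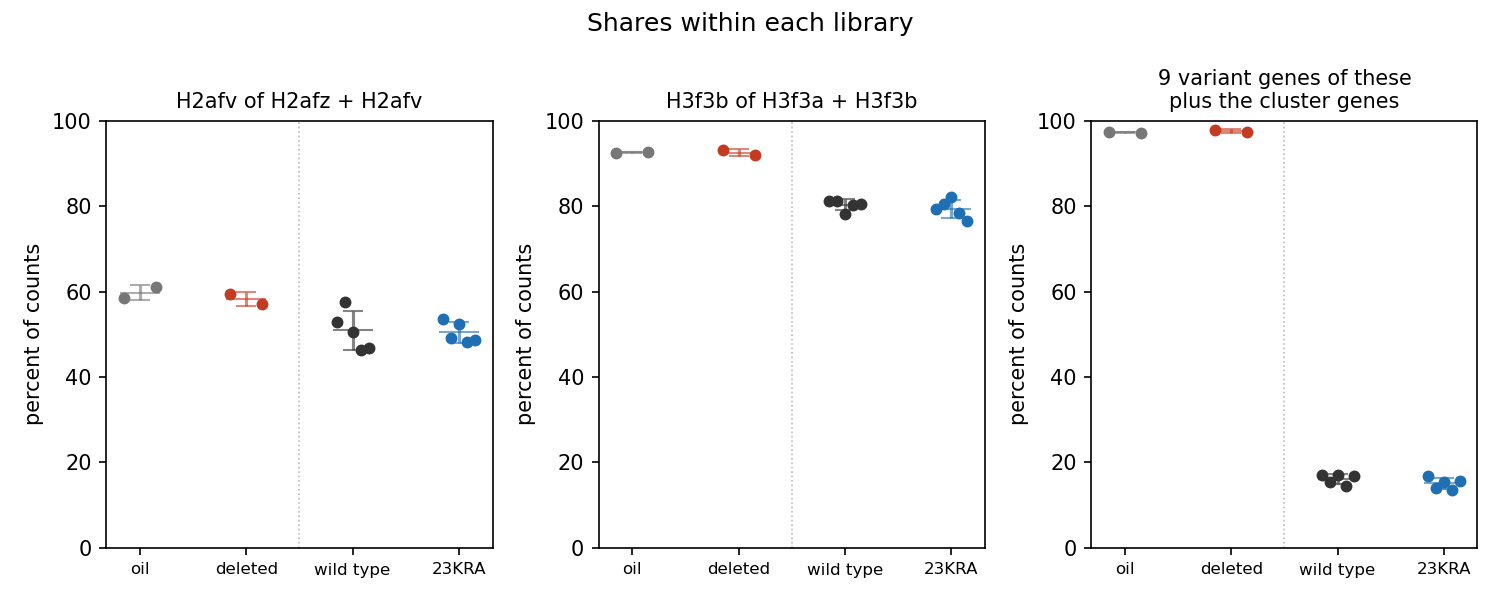
Percent of counts (y axes, 0 to 100) of H2afv within the H2A.Z genes, of H3f3b within the H3.3 genes and of the 9 variant genes within the counts of these and the 69 histone cluster genes, in every library (points) with mean and SD. Mutants and their own controls overlap in each panel, and the share of the variant genes against the cluster genes is 97.2% to 97.9% in the mRNA libraries and 13.5% to 17.0% in the total RNA libraries.

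Genes that deposit, read or process histones were examined by list, and no gene on any of these 9 lists passed in either comparison by edgeR. In the deletion the lists had median log2 fold changes from -0.20 to 0.078, beside -0.0044 over all genes. The edgeR test put 4.74% of all genes at an unadjusted p under 0.05, the share to set beside the counts below. All 8 genes of H3.3 deposition, among them the chaperone subunit Ubn1 (167 against 158 CPM in controls and deleted animals) and Asf1b (320.5 against 314 CPM), were below 0, with a median of -0.076 and 0 of 8 at an unadjusted p under 0.05. The 20 genes of H2A.Z exchange, with the remodeller Ep400 at 215 against 183 CPM and the shared subunit Actl6a at 253 against 259 CPM, had 8 above 0 and 12 below (median -0.031). Of 19 genes that load CENP-A or form the constitutive centromere, 15 were above 0 and 4 below (median 0.049), with Mis18a, which primes centromeres for loading, at 135 against 139.9 CPM. Of 14 genes that phosphorylate or read H2AX, 9 were above 0 (median 0.067). The kinase gene Atr, at 466 ± 75.0 against 566 ± 47.9 CPM (SD, n = 2; log2 fold change 0.28, SE 0.12), was the 1 gene of this list at an unadjusted p under 0.05; Topbp1 was at 304 against 318 CPM.

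General chaperones (12 genes, median 0.078; Nasp at 711 against 709 CPM, Npm1 at 709 against 752 CPM) and genes that process cluster histone mRNA (7 genes, median 0.054; the stem-loop binding protein gene Slbp at 574 against 645 CPM, Casp8ap2 at 275 against 275 CPM) did not pass. Of 12 other histone variant genes 9 could be tested, with 3 above 0 and 6 below (median -0.20). The spermatid linker histones H1fnt and Hils1 were at 172 ± 3.67 against 149 ± 7.75 CPM and 125 ± 0.613 against 113 ± 5.05 CPM (SD, n = 2), with log2 fold changes of -0.21 and -0.15. Hist1h1t, the 1 of these 9 at an unadjusted p under 0.05 (beside 4.74% of all genes), was at 0.799 against 0.281 CPM. S phase genes did not pass either (13 genes, 9 above 0, median 0.056), with Mcm6 at 497 against 529.9 CPM and Rrm1 at 419 against 476 CPM. Nor did G2/M genes (12 genes, 9 above 0, median 0.044), with Top2a at 722 against 758 CPM and Cenpf at 536 against 540.3 CPM. Of these 12, 2 were at an unadjusted p under 0.05, beside 4.74% of all genes. They were Ccnb1 (log2 fold change 0.27) and Bub1 (0.35).

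In 23KRA homozygotes the same lists had medians from -0.027 to 0.095, beside 0.0034 over all genes. H3.3 deposition had 5 of 8 above 0 (Ubn1 at 248 against 249 CPM in wild type and homozygotes, Asf1b at 71.1 against 71.7 CPM), and H2A.Z exchange 11 of 20 (Ep400 at 595 against 607 CPM, Actl6a at 134 against 145 CPM). Centromere genes had 13 of 19 above 0 (median 0.029), with Mis18a at 42.4 ± 7.00 against 47.9 ± 6.56 CPM (SD, n = 5). Genes of H2AX signalling had 6 of 14 above 0 (Atr at 554 against 599.8 CPM, Topbp1 at 463 against 493 CPM). General chaperones had 4 of 12 above 0 (Nasp at 1873 against 1856 CPM, Npm1 at 1349 against 1385 CPM). Histone mRNA processing had 3 of 7 above 0 (Slbp at 279 against 274 CPM, Casp8ap2 at 596 against 606 CPM). At an unadjusted p under 0.05 edgeR counted 1 of the 12 and 2 of the 7, beside 3.04% of all genes. The 1 chaperone gene was Ipo4 (log2 fold change -0.25). The 2 processing genes went in opposite directions, Npat (0.20) and Lsm11 (-0.67). Of the other histone variant genes 8 could be tested and 5 were above 0. H1fnt was at 41.8 ± 14.9 against 33.0 ± 19.4 CPM and Hils1 at 8.01 ± 3.79 against 7.85 ± 4.22 CPM (SD, n = 5). Hist1h2aa, at 945 ± 152 against 1072 ± 246 CPM, and Hist1h2ba, at 942 ± 188 against 1072 ± 244 CPM, were far higher. Their log2 fold changes were 0.18 and 0.19. S phase genes had 8 of 13 above 0 (424 against 441 CPM for Mcm6, 278 against 279.5 CPM for Rrm1) and G2/M genes 7 of 12 (1304 against 1272 CPM for Top2a, 2937 against 2959 CPM for Cenpf).

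Across the 10 libraries of the 23KRA experiment the members did not vary as 1 group. Of 36 pairs of members 22 had a Pearson r of log2(CPM + 1) above 0 and 14 below, given as a description without a test, since all points share their libraries and scaling. H2afx and H3f3b were the most alike (r = 0.87) and H1fx and Cenpa the least (r = -0.71). Among 8690 other genes of at least 10 CPM, the gene most like H2afx over these 10 libraries was Hist1h4a, a cluster gene for histone H4 (r = 0.94), followed by Dbf4, the activator of a replication kinase (r = 0.94). Those most like the others were Ppp6r3 and Tnpo3 for H2afz (r = 0.95 and 0.93), Dld and Ets1 for H2afv (0.92 and 0.91), Tpm3 and Scd2 for H2afy (0.94 and 0.92), Jpt2 and Plekhm3 for H3f3a (0.96 and 0.93), Sp3 and Ppp3cb for H3f3b (0.94 and 0.91), Map3k4 and Rnf44 for H1fx (0.93 and 0.93), Fcho2 and Zdhhc6 for H1f0 (0.87 and 0.84), and Zbtb8a and Rpl38 for Cenpa (0.96 and 0.95). With 10 points and this many genes searched, such values are a description of these libraries only.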

How the data were processed

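The authors deposited 1 table per experiment with raw counts for each gene symbol, without normalization. The submitters' processing notes name the mm10 build, Subread 1.5.0 with featureCounts, SAMtools 1.4.1, STAR 2.5.3 and Trim Galore 0.4.3. For annotation, strand setting and multiply mapped reads, the settings were not given in the sources used here. Each table was tested alone with R 4.3.3 and edgeR 4.0.16: filterByExpr, TMM scaling, a two-sided quasi-likelihood F test and Benjamini-Hochberg adjustment over 16725 (deletion) or 14208 (23KRA) genes at 0.05. All 9 members passed the filter in both. The SE is the log2 fold change divided by the square root of F. Shares were compared by exact permutation, adjusted over 3 per experiment. Positions, lengths and sequences are from GENCODE M21 on GRCm38, the assembly named mm10 elsewhere. Alternatives used DESeq2 1.42.0 and limma 3.58.1. Scaling, filter, tool, replicate block and left-out libraries were varied. Named genes are all 9 members and the 2 genes most like each. For each list they are the genes that passed or else the 2 of highest mean CPM in the deletion. Hist1h1t, Hist1h2aa, Hist1h2ba, Ccnb1, Bub1, Ipo4, Npat and Lsm11 were named after their values were seen. For the centromere list 1 of the 2 is not reported here. The members and lists were chosen with earlier results of these data known. Replicates were compared before use: chi-square per degree of freedom lay between 11.2 and 13.7 (deletion) or 13.9 and 41.4 (23KRA), so no pair agreed within counting noise.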

Additional observations from a re-analysis of the deposited data

Results flagged for a closer look

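In 24 sets of 5 values (9 genes and 3 shares in each 23KRA group), the gap between an extreme library and its nearest neighbour was compared with the range, and 2 passed; chance gives about 1 in 20. Wild-type replicate 2 had 97.6 CPM of H2afv, with the next library at 81.1 CPM. Wild-type replicate 1 had 88.9 CPM of H1f0, with the next at 119 CPM. Groups of 2 were not examined in this way.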

How the results depend on the processing

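No member was called in either experiment under another scaling, another filter, DESeq2, limma-voom or with any library left out. Replicate numbers are not stated to mark a shared litter or day, so the main fit did not use them. Deviations of same-numbered libraries correlated at 0.25 in the deletion and at -0.023 to 0.27 in 23KRA. Summed pachytene markers ranked the 23KRA replicates alike in both groups. They ran from 301 and 282 CPM in replicate 5 (wild type and homozygotes) down to 150 and 129 CPM in replicate 2. These values do not settle whether the numbers mark pairs. With the replicate number as a block, 1 member passed in the deletion, H1fx (log2 fold change -0.34, adjusted p = 0.0252), and genes called over all went from 2 to 62 in the deletion and from 0 to 2 in 23KRA. Genes called over all in the deletion were 8 with no filter, 1 with a filter at 5 CPM, 1 by DESeq2 and 1 by limma-voom, and 2 to 73 with 1 library left out (73 without deleted replicate 2). Changes near 0 altered sign. H3f3b in the deletion was -0.0017 by limma-voom and -0.0019 with the block. H3f3b in 23KRA was -0.0015 with DESeq2 size factors, -0.0039 with upper quartile factors, -0.0028 with no filter and -0.0015 by DESeq2. Leaving out wild-type replicates 2 and 3, in which the fewest genes were detected, H2afz was -0.0026 and H1f0 was 0.011. With 1 library left out, the deletion ranges were -0.030 to 0.21 for H2afv, -0.038 to 0.19 for H2afy, -0.064 to 0.10 for H3f3a, -0.19 to 0.19 for H3f3b, -0.24 to 0.13 for H1f0 and -0.14 to 0.15 for Cenpa. In 23KRA they were -0.042 to 0.11 for H2afx, -0.031 to 0.095 for H2afv and -0.047 to 0.038 for H3f3b, with the sign changed, and 0.014 to 0.12 for H2afz, 0.0083 to 0.14 for H3f3a, -0.22 to -0.086 for H1fx, -0.14 to -0.016 for H1f0 and 0.15 to 0.29 for Cenpa, with the sign kept. The median over the members ran from -0.12 to 0.13 in the deletion and from -0.042 to 0.056 in 23KRA. The difference in the H3f3b share in the deletion ran from -0.66 to 0.50 percentage points and that in the H2afv share in 23KRA from -1.58 to 1.21. No other difference in a share changed sign, per exon length included. Adding the other histone variant genes to the denominator, chosen after seeing the data, gave differences of 1.00 (deletion) and -1.03 (23KRA) percentage points in the share of the 9 genes. The cause of these shifts was not tested. Leaving out a deletion library leaves 1 animal in a group, which is then assumed to vary like the other group. Intervals widen where counts are few, as for H2afy.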
